A study of Mus musculus with 6 samples.

Results

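The expression of 9 complement genes, the recognition chains C1qa, C1qb and C1qc, the components C3, C4b, Cfb and Cfp, and the receptors C3ar1 and C5ar1, was measured in mouse bone marrow-derived macrophages (BMDMs) kept in culture with the ovarian cancer line ID8. They were taken by gene symbol from a table of 54532 genes, and all 9 were found. The cisplatin group was labelled with 40 µM cisplatin, which crosslinks DNA, and the control group with phosphate-buffered saline (PBS). Each held 3 libraries. The labels do not say which cells received the agent, and the study's results section describes ID8 cells pretreated with cisplatin before co-culture with BMDMs. According to the methods, the marrow cells came from C57BL/6 mice several weeks of age and are also called monocytes. ID8 is a cell line grown from the ovarian surface epithelium of a female mouse. How the BMDMs were parted from the ID8 cells, and for how long both were cultured together, is not given in the sources used here.

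Complement is a cascade of plasma and cell-surface proteins that tags particles for uptake and calls in leukocytes. In the classical pathway, C1q, built from equal numbers of A, B and C chains, recognises immune complexes or dying cells and activates the proteases C1r and C1s, which cleave C4 and C2. In the alternative pathway, factor B (Cfb) joins C3b to form a convertase that properdin (Cfp) stabilises, and the fragments C3a and C5a signal through C3ar1 and C5ar1. The liver supplies most circulating components, whereas macrophages and other myeloid cells are a main source of C1q and properdin and carry the receptors.

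The members split into a rising and a falling group. All 3 C1q chains, properdin and both anaphylatoxin receptors were higher in BMDM libraries from the cisplatin group, by 2.25 to 5.80 times in mean FPKM, a read count scaled to gene length and library size. C3, C4b and Cfb were lower, by 4.81 to 20.2 times. A gene was called when limma, fitted on log2(FPKM + 1) over all 13441 genes with at least 1 FPKM in at least 3 libraries, gave both a fold change of 1 or more in size on the log2 scale and, after Benjamini-Hochberg adjustment, a p under 0.05. By this rule 6 of the 9 members were called higher, where 4.67% of all tested genes were, and 3 were called lower, where 11.3% were. When the libraries were scaled by 4 Y-linked genes instead, no member changed direction, but 1 (C1qb) was called higher, where 0.632% of tested genes were, and 3 lower, where 38.5% were. In each of the 9 the groups did not overlap, as in 72.4% of all tested genes. All 9 members passed the filter on low values, but C4b and Cfb passed it through the PBS libraries alone and so had to differ. The libraries held between 15776238 and 17924686 reads. Over tested genes the correlation of log2 values was 0.984 to 0.989 between libraries of the same group and 0.871 to 0.877 between groups. In these bulk libraries fewer cells of a type and less RNA per cell cannot be told apart.

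**Figure D1:**
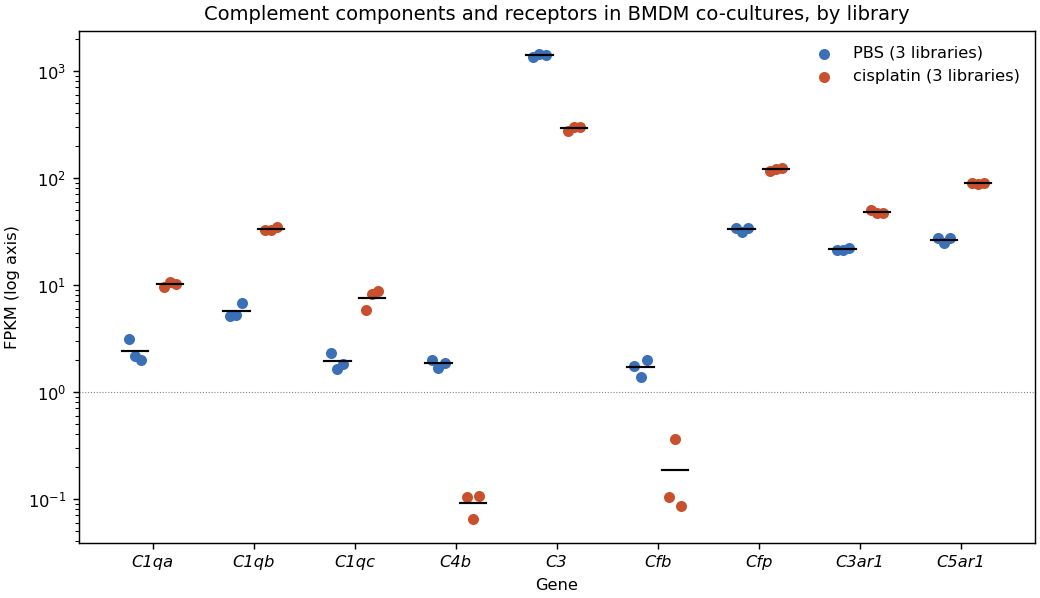
FPKM of the 9 members (log axis) in the 3 PBS and 3 cisplatin libraries. Points are libraries, black lines are group means and the dotted line marks 1 FPKM. The C1q chains, Cfp, C3ar1 and C5ar1 lie higher with cisplatin, and C3, C4b and Cfb lie lower, with no overlap between the groups for any gene.

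The promoters of C1qb, C1qc and C3 are shown first, because the first pair are neighbours that rose together and C3 is the member with the highest level. The RefSeq sequences (GRCm38.p6) run from 250 bases before the start site to 50 bases after it, and 6 of the 9 members had one (C1qb, C1qc, C3, Cfp, C3ar1 and C5ar1, not C1qa, C4b or Cfb). They are written 5′ to 3′ on the coding strand, which is the minus strand at chr4:136886151-136886450 for C1qb, chr4:136892865-136893164 for C1qc and chr17:57228087-57228386 for C3. Capitals mark matches, on either strand, to the ETS core GAGGAA, the kind of site that the myeloid factor PU.1 binds, and to the half-site TGCTGA of the MAF factors.
C1qb: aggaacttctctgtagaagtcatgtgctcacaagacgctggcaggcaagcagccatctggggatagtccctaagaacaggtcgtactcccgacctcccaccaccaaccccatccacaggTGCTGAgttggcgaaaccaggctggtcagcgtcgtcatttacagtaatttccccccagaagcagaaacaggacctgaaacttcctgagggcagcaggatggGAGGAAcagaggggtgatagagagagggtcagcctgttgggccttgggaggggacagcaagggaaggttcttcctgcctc
C1qc: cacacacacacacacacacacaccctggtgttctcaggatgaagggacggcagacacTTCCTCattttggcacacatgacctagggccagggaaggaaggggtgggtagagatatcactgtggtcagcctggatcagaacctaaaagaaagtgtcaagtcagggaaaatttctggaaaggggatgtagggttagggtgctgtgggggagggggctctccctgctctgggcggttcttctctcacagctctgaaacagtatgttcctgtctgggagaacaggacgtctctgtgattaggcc
C3: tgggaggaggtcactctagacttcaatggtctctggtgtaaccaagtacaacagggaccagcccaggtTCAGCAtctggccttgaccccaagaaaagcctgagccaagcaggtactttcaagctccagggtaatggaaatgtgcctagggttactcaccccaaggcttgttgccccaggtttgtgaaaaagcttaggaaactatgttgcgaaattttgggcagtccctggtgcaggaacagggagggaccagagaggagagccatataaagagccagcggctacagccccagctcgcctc
The ETS core was found in 3 of the 6 member promoters (C1qb, C1qc and Cfp), against 28.3% of 32851 promoters of the same length. The MAF half-site was found in 4 of 6 (C1qb, C3, C3ar1 and C5ar1), against 19.5% of all. In C1qb the half-site lay at positions -131 to -126 and the ETS core at -30 to -25, counted from the start site at 0. None of the 6 held the interferon-stimulated response element, GAAANN directly followed by GAAA (3.44% of all promoters), the gamma-activated site TTCNNNGAA (8.30%) or the ETS-IRF composite, GGAANN directly followed by GAAA (2.72%), and no matches to different motifs overlapped in the 6. These letters describe the windows and show no binding.

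The C1q chain genes, which give the recognition unit of the classical pathway, rose from low levels. They lie side by side on chromosome 4 in a span of 18675 bases (GRCm38, 136880129 to 136898803), in the order C1qb, C1qc and C1qa. C1qb (ENSMUSG00000036905) was measured at 5.14, 5.25 and 6.82 FPKM in the PBS libraries and at 32.3, 32.9 and 34.7 FPKM in the cisplatin libraries. Every cisplatin library was thus between 4.73 and 6.74 times above every PBS library (log2 fold change 2.35, SE 0.096, limma adjusted p = 1.45e-06). On the log2(FPKM + 1) scale this was the 28th largest rise among the 13441 tested genes.

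C1qa (ENSMUSG00000036887) was measured at 3.15, 2.16 and 1.98 FPKM with PBS and at 9.50, 10.7 and 10.1 FPKM with cisplatin. PBS replicate 1 was the highest of its group, and the lowest cisplatin library still lay 3.01 times above it (log2 fold change 1.71, SE 0.13, limma adjusted p = 2.59e-05). C1qc (ENSMUSG00000036896) was measured at 2.31, 1.63 and 1.84 FPKM with PBS and at 5.82, 8.17 and 8.78 FPKM with cisplatin. Its cisplatin replicate 1 was lower than the other two, which gave C1qc the widest spread of the chains (log2 fold change 1.54, SE 0.15, limma adjusted p = 0.000112). Between 32 and 115 reads lay behind each C1q value in the PBS libraries and between 168 and 623 in the cisplatin libraries. The rises of C1qa and C1qc were the 98th and 145th largest.

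Since FPKM is a level per length, the chains could be compared within a library. C1qb was the most abundant chain in all 6 libraries. The ratio of C1qb to C1qa was 1.63, 2.43 and 3.44 in the PBS libraries and 3.40, 3.07 and 3.42 in the cisplatin libraries, so the groups overlapped. The ratio of C1qc to C1qa was 0.804 ± 0.11 with PBS and 0.747 ± 0.13 with cisplatin (± SD, n = 3 per group), again with overlap. The ratio of C1qb to C1qc, computed after the other values were seen, was 2.22, 3.22 and 3.71 with PBS and 5.55, 4.02 and 3.95 with cisplatin. C1qb was thus higher relative to C1qc in every cisplatin library than in any PBS library, a difference that was not tested.

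The genes around the C1q locus were named by position alone. Of the 2 nearest protein-coding genes on each side, Lactbl1 (0.0191 and 0.00683 FPKM in the mean), Ephb2 (0.0545 ± 0.016 FPKM with PBS and 0.122 ± 0.032 with cisplatin, SD, n = 3 each) and Epha8 (0.00400 FPKM with PBS and listed at 0 with cisplatin) were hardly detected and not tested. Zbtb40, the next gene beyond Epha8, went from 2.82 ± 0.26 to 4.26 ± 0.18 FPKM and was not called (± SD, n = 3 per group, log2 fold change 0.46, limma adjusted p = 0.00118).

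The genes of the proteases that C1q activates went the other way. C1ra and C1s1 encode C1r and C1s. C1s1 was measured at 223, 223 and 219 FPKM with PBS and at 39.6, 37.9 and 41.6 FPKM with cisplatin (log2 fold change -2.45, SE 0.040, limma adjusted p = 6.04e-08). C1ra fell from 43.0 ± 2.62 to 3.72 ± 0.37 FPKM (± SD, n = 3 per group, log2 fold change -3.22, limma adjusted p = 1.28e-07). Their paralogues C1s2 (log2 fold change -2.83, limma adjusted p = 1.11e-07) and C1rb (log2 fold change -1.22, limma adjusted p = 0.000329) were also called lower, although C1rb passed the filter through the PBS libraries alone and so had to differ. C1ra with C1rb, and C1s1 with C1s2, are near-identical pairs between which reads may be shared. The level of C1s1 over that of C1qb, a ratio chosen after the values were seen, was between 32.1 and 43.4 in the PBS libraries and between 1.15 and 1.23 in the cisplatin libraries. C1ra over C1qb, chosen in the same way, went from 7.63 ± 1.28 to 0.112 ± 0.012 (± SD, n = 3 per group).

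**Figure D2:**
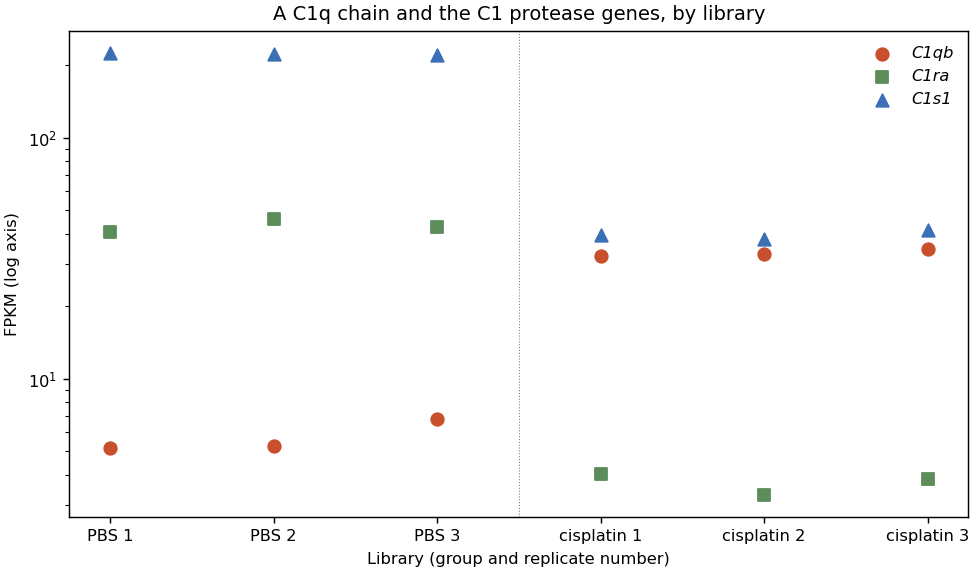
FPKM (log axis) of C1qb, C1ra and C1s1 in each library, by group and replicate number. In the PBS libraries C1s1 and C1ra lie above C1qb. In the cisplatin libraries C1qb lies close to C1s1, with a ratio of C1s1 to C1qb between 1.15 and 1.23, and above C1ra.

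C4b, which encodes the substrate of C1s (ENSMUSG00000073418, chromosome 17, 34728380 to 34743882), was expressed at low levels only. It was measured at 1.99, 1.68 and 1.86 FPKM with PBS and at 0.103, 0.0642 and 0.106 FPKM with cisplatin. The cisplatin values rested on 10, 6 and 10 reads, against 201, 149 and 164 reads with PBS. Mean FPKM was 20.2 times lower with cisplatin (log2 fold change -1.38, SE 0.10, limma adjusted p = 2.35e-05). The added 1 FPKM compresses such values, and limma voom on the recovered reads gave -4.20 on the log2 scale (SE 0.38, adjusted p = 1.31e-08). C4b has a near-identical neighbour in C4a, whose own levels were 0.258 ± 0.068 and 0.155 ± 0.054 FPKM (± SD, n = 3 per group, not tested), so the division of reads between them is uncertain. C2, the other substrate, had at most 0.25 FPKM in any library and was not tested. Of its exonic bases, 42.8% are shared on the same strand with another annotated gene, Gm20547, so its level is uncertain too.

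C3, on which all pathways converge, was the most abundant member in both groups (ENSMUSG00000024164, chromosome 17, 57203970 to 57228136). It was measured at 1356, 1424 and 1413 FPKM with PBS and at 272, 299 and 301 FPKM with cisplatin. In the PBS libraries it was the 7th or 8th most abundant of 22046 protein-coding genes, and in the cisplatin libraries it ranked between 77 and 87. Every PBS library lay between 4.50 and 5.23 times above every cisplatin library (log2 fold change -2.26, SE 0.048, limma adjusted p = 1.05e-07). At least 23827 reads lay behind each value, so that counting error is small beside the spread between libraries. Its fall was the 266th largest.

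In the alternative pathway Cfb and Cfp moved in opposite directions. Cfb (ENSMUSG00000090231, chromosome 17, 34856374 to 34862518) was measured at 1.74, 1.36 and 1.99 FPKM with PBS and at 0.104, 0.366 and 0.0857 FPKM with cisplatin. Cisplatin replicate 2, with 17 reads, was the highest of its group, whereas the others had 5 and 4 reads. The groups stayed apart, with mean FPKM 9.15 times lower with cisplatin (log2 fold change -1.19, SE 0.15, limma adjusted p = 0.000320). On the recovered reads limma voom gave -3.31 (SE 0.48, adjusted p = 5.57e-06). In GENCODE M21, 79.5% of the exonic bases of Cfb are shared on the same strand with Gm20547, a transcript unit that also takes in C2 and was listed at 0 in all 6 libraries. Reads in the shared bases cannot be given to one gene, so the level of Cfb is less certain than its number of reads implies. If such reads were left out of both genes, the values of Cfb, scaled to all its 2825 bases, would be too low.

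Cfp, an X-linked gene (ENSMUSG00000001128, chromosome X, 20925454 to 20931555) whose product stabilises the alternative convertase, was measured at 34.1, 31.4 and 34.1 FPKM with PBS. With cisplatin it reached 115, 122 and 124 FPKM. All cisplatin libraries lay between 3.38 and 3.95 times above all PBS libraries (log2 fold change 1.83, SE 0.047, limma adjusted p = 2.04e-07). Cfd, the protease that cleaves factor B, had at most 0.28 FPKM and was not tested.

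C4b and Cfb belong to the same stretch of chromosome 17, 134139 bases from the start of one to the end of the other. Of the other protein-coding genes within it, named by position, Stk19 (log2 fold change 0.28, limma adjusted p = 0.00782), Dxo (0.046, adjusted p = 0.577), Skiv2l (0.085, adjusted p = 0.329) and Nelfe (-0.15, adjusted p = 0.0299) were tested by limma and not called. None of the 4 tested genes between C4b and Cfb was called lower, and Cyp21a1 was listed at 0 in all libraries.

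Both anaphylatoxin receptors rose. C5ar1, the receptor of C5a (ENSMUSG00000049130, chromosome 7, 16246743 to 16259540), was measured at 27.6, 24.6 and 27.2 FPKM with PBS and at 89.3, 86.9 and 90.4 FPKM with cisplatin. The cisplatin libraries lay between 3.15 and 3.67 times above those with PBS (log2 fold change 1.71, SE 0.049, limma adjusted p = 3.05e-07). C3ar1, the receptor of C3a (ENSMUSG00000040552, chromosome 6, 122847138 to 122856161), was measured at 21.2, 21.1 and 22.0 FPKM with PBS and at 50.3, 47.4 and 47.1 FPKM with cisplatin. It showed the smallest ratio of the rising members, between 2.15 and 2.38 (log2 fold change 1.13, SE 0.040, limma adjusted p = 7.52e-07). C5ar1 over C3ar1, a ratio chosen after the values were seen, was between 1.16 and 1.30 with PBS and between 1.77 and 1.92 with cisplatin, so the groups did not overlap. C3 over C3ar1, ligand precursor over receptor and chosen in the same way, went from 65.2 ± 1.85 to 6.03 ± 0.54 (± SD, n = 3 per group).

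Ordered by mean FPKM, the members ran C3, Cfp, C5ar1, C3ar1, C1qb, C1qa, C1qc, C4b and Cfb with PBS. In that order the ranges over libraries overlapped between C1qa and C1qc, between C1qc and C4b, and between C4b and Cfb. With cisplatin the order of the first 7 was the same and no neighbours among them overlapped, while Cfb and C4b closed the list with overlapping ranges. The place of Cfb is less certain in both groups, given the bases it shares with Gm20547. C3 was 42.1 times above Cfp, the next member, with PBS and 2.41 times above it with cisplatin.

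The other genes of the cascade were taken from a list of 53 complement genes that includes the members. Of these, 26 were tested, of which 8 were called higher and 11 lower, where 4.67% and 11.3% of all tested genes were, and the median log2 fold change was 0.51 against -0.0011 over all tested genes. Of the 17 tested genes that were not members, 2 were called higher and 8 lower, and their median was -0.54. All 26 had an adjusted p under 0.05 in limma, as did 68.0% of all tested genes. Of the 26, 5 passed the filter through PBS libraries alone and 1 through cisplatin libraries alone. Among the 20 that reached 1 FPKM in at least 1 library of each group, 8 were called higher and 6 lower. Scaling by the Y-linked genes left 1 of the 26 called higher and 12 lower, where 0.632% and 38.5% of all tested genes were. On the recovered reads limma voom also called Fcnb, Itgax and C5ar2 higher, for 11 in all, where it called 9.13% of all tested genes higher.

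**Figure D3:**
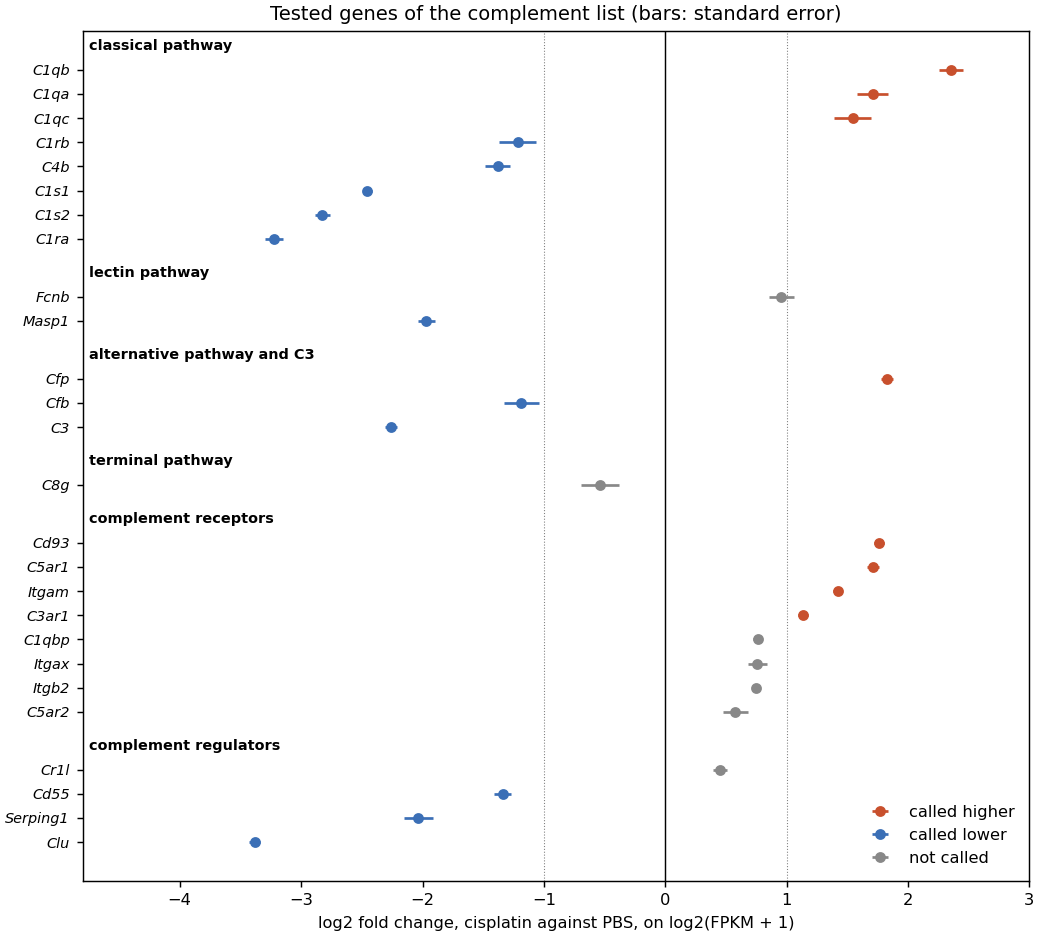
Log2 fold change (cisplatin against PBS, on log2(FPKM + 1), as deposited) of the 26 tested genes of the complement list, by role, with standard errors. Dotted lines mark a log2 fold change of 1 in size. The 8 tested receptors lie to the right of 0 (6 of them when scaled by Y-linked genes), whereas 3 of 4 tested regulators and the C1 proteases lie to the left.

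Of 10 listed receptors, 8 were tested and all 8 were higher with cisplatin at an adjusted p under 0.05, as were 32.9% of all tested genes, and 4 of them were called, where 4.67% were. When the libraries were scaled by the Y-linked genes, none of the 4 was still called (Cd93 0.79, C5ar1 0.74, Itgam 0.44 and C3ar1 0.17 on the log2 scale), and Itgb2 and C1qbp turned lower. Beside C3ar1 and C5ar1 the called receptors were Cd93, once described as a C1q receptor, which went from 19.7 ± 0.93 to 69.3 ± 0.63 FPKM (± SD, n = 3 per group, log2 fold change 1.76, limma adjusted p = 1.48e-07), and Itgam, the alpha chain of complement receptor CR3. Itgam went from 34.96 ± 0.87 to 95.2 ± 3.30 FPKM (± SD, n = 3 per group, log2 fold change 1.42, limma adjusted p = 2.54e-07) and shares 68.7% of its exonic bases with Gm49368. Itgb2, the beta chain that pairs with Itgam (log2 fold change 0.75), Itgax (0.76), C1qbp (0.76) and C5ar2 (0.58) passed the adjusted p in limma but not the fold change threshold. C5ar2 passed the filter through the cisplatin libraries alone and so had to differ. Cr2, a receptor of B cells, had at most 1.13 FPKM and was not tested, nor was Vsig4, a receptor of tissue macrophages that had a value above 0 in 1 PBS library only.

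Of 13 listed regulators, 4 were tested and 3 were called lower, where 11.3% of all tested genes were. Clusterin (Clu), which binds terminal complexes, fell from 121 ± 3.99 to 10.7 ± 0.55 FPKM (± SD, n = 3 per group, log2 fold change -3.38, limma adjusted p = 4.49e-08). The C1 inhibitor gene Serping1 (log2 fold change -2.04, limma adjusted p = 7.66e-06) and Cd55, which speeds the decay of convertases (-1.34, adjusted p = 3.72e-06), were lower as well. Serping1 passed the filter through the PBS libraries alone. Cr1l, which encodes the membrane regulator Crry, was the exception, going from 4.82 ± 0.061 to 6.98 ± 0.44 FPKM without a call (± SD, n = 3 per group, log2 fold change 0.45, limma adjusted p = 0.000380, and -0.40 when scaled by Y-linked genes).

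The lectin and terminal pathways were little expressed. Of 9 lectin pathway genes 2 were tested. The protease gene Masp1 was called lower (log2 fold change -1.97, limma adjusted p = 7.17e-07), also after passing through the PBS libraries alone, and the ficolin gene Fcnb, expressed by granulocyte precursors, went from 2.83 ± 0.42 to 6.41 ± 0.61 FPKM (± SD, n = 3 per group, log2 fold change 0.96, limma adjusted p = 0.000166), just short of the fold change threshold. Of 7 terminal genes only C8g was tested, and it was not called (log2 fold change -0.54, limma adjusted p = 0.0183). C7 and C8b were listed at 0 in all 6 libraries.

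Markers of the cells that the RNA could come from moved with both groups of members. All 8 macrophage markers were detected in every library and higher with cisplatin (3 of 8 when scaled by Y-linked genes), 3 of them called, with a summed level of 1618 to 1628 FPKM with PBS and 4164 to 4338 FPKM with cisplatin, most of it Lyz2. Their ratios of means ran from 1.15 (Cd68) to 5.90 (Mertk), against 2.25 to 5.80 for the rising members. Mertk, 1 of the 3 called, passed the filter through the cisplatin libraries alone, and without it the highest ratio was 5.43 (Marco). Neutrophil and granulocyte precursor markers, 12 of 12 with a higher mean (9 when scaled by Y-linked genes) and 9 called, summed to 4937 to 5091 FPKM with PBS and 9354 to 9591 FPKM with cisplatin. Most of this sum was S100a9 and S100a8, neither of which was called. The groups overlapped for Ly6g (2.81 ± 0.46 and 3.15 ± 0.36 FPKM, SD, n = 3 each, limma adjusted p = 0.349). Of all tested genes, 4.67% were called higher, and 6707 of 13441 had a log2 fold change above 0. Markers of lymphocytes (112 to 120 FPKM with PBS, 267 to 274 with cisplatin, 3 of 5 tested called higher, with 5 above 0 as deposited and 3 when scaled by Y-linked genes) and dendritic cells (17.3 to 18.9 against 41.0 to 43.4, 3 of 4 tested called higher, with Zbtb46 going the other way at -0.69) were present as well. Of the dendritic cell markers, Flt3 passed the filter through the cisplatin libraries alone and Zbtb46 through the PBS libraries alone, so both had to differ. The 3 called dendritic cell markers became 1 without cisplatin replicate 1 or without PBS replicate 2. No marker of these 4 lists was at 0 in all libraries, and the T cell genes Cd3d, Cd3e and Cd3g were all below the filter. Properdin is also a product of neutrophils, and the part of these markers in the rises was not tested.

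Markers of ID8 and mesothelial cells were lower, in 9 of 9 tested cases of 13 listed, 8 of them called. Their summed level was 1308 to 1411 FPKM with PBS and 242 to 262 FPKM with cisplatin, and their ratios of PBS over cisplatin ran from 1.64 (Msln) to 11.5 (Krt19), with a median of 4.65. Cd68, Mertk, Marco, Ly6g, Flt3, Zbtb46 and Msln are named here for their values. For C3 the ratio was 4.81, for C1s1 5.59, and for C4b, which passed the filter through the PBS libraries alone, 20.2. Krt19 fell from 588 ± 28.8 to 51.1 ± 3.80 FPKM (± SD, n = 3 per group, log2 fold change -3.50, limma adjusted p = 7.18e-08), and C3 over Krt19, a ratio chosen after the values were seen, was 2.38 ± 0.17 with PBS and 5.70 ± 0.15 with cisplatin (± SD, n = 3 per group). Krt19 had the largest fall of the list, whereas the median marker ratio of 4.65 was close to the 4.81 of C3. Krt7, Lrrn4, Igfbp5 and Epcam were below the filter in all 6 libraries, though none was at 0 in all. The part of ID8 RNA in the falls of C3, C4b, Cfb and the C1 proteases was not tested.

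**Figure D4:**
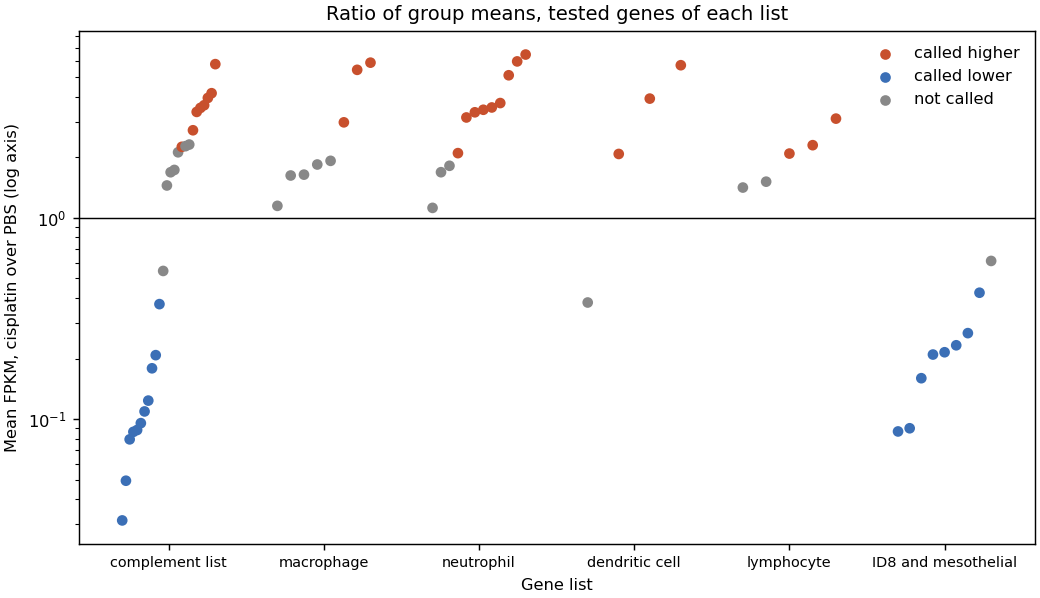
Mean FPKM with cisplatin over mean FPKM with PBS (log axis) for the tested genes of the complement list and of 5 marker lists, each point a gene and coloured by its call. The complement list spans both sides, with its rising genes in the range of the macrophage and neutrophil markers. Its falling genes reach below the ID8 and mesothelial markers, of which Krt19 is lowest (0.0869). Of those below, Serping1 and C4b passed the filter through the PBS libraries alone and so had to differ. C1s2 (0.0794) and C1ra (0.0865) passed through both groups.

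The 4 genes of the Y chromosome used for scaling were Ddx3y, Eif2s3y, Kdm5d and Uty, which a line from a female mouse lacks. Their summed level was 19.5 to 22.7 FPKM with PBS and 41.6 to 42.8 FPKM with cisplatin, and the part of this difference in the results was not tested. The scaling used their geometric mean. Their ratios of cisplatin over PBS differed, at 1.66 for Eif2s3y, 1.77 for Uty, 2.27 for Kdm5d and 2.37 for Ddx3y. Log2 fold changes near 0 under this scaling are thus uncertain in direction. When the libraries were scaled by these genes, the median log2 fold change of all tested genes moved to -0.83, and 0.632% of tested genes were called higher and 38.5% lower. Of the 6 rising members only C1qb was then still called (log2 fold change 1.44), while C1qa (0.90), Cfp (0.85), C1qc (0.77), C5ar1 (0.74) and C3ar1 (0.17) kept their direction without a call. The 3 falling members were still called, C3 at -3.26.

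The profile of the C1q chains over the 6 libraries was compared with that of other tested protein-coding genes outside the complement list, by Euclidean distance on log2(FPKM + 1) after centring each gene on its mean. The nearest were Igfbp4 (distance 0.159), Srm (0.159), the neutrophil elastase gene Elane (0.180), Crispld2 (0.183) and the neutrophil surface gene Cd177 (0.232). C1qa, C1qc and C1qb themselves lay 0.339, 0.460 and 0.693 from the mean profile of the chains. All 5 nearest genes were called higher, and with 6 libraries in 2 groups the likeness is mainly one of fold change.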

How the data were processed

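RNA from 6 BMDM co-culture libraries, 3 per group, was sequenced, and the authors deposited 1 table of FPKM values for 54532 genes. Per the study's methods, low-quality and adaptor-containing reads were removed and LifeScope was used for alignment and counting, whereas the submitters' processing notes name fastp, HISAT2 2.0.5, featureCounts 1.5.0-p3 and the build mm10. Whether counting used strand is not given in the sources used here. GENCODE M21 (GRCm38) held 54495 of these identifiers, 98.3% of them with the same coordinates, all 9 members among them.

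Values times gene length were whole multiples of a step in each library (100% of values below 200 reads, within 0.05 of a whole read), and the reads so recovered summed to 15776238 to 17924686 per library. Relative to this sum, the library size used in the deposited values was 97.4% to 98.7% with PBS and 103.7% to 104.1% with cisplatin. Counting error is large only for members with few reads. Genes with at least 1 FPKM in at least 3 libraries were tested on log2(FPKM + 1) with limma 3.58.1 under R 4.3.3 (group as the only term, eBayes with a trend, two-sided), with Benjamini-Hochberg adjustment over all 13441 genes. Fold changes are cisplatin against PBS and understate changes of low genes. Nothing in the labels ties libraries to separate mice or cultures, so p-values measure only the spread between these libraries, which may be technical. The fit was also run on simulated data with few changed genes, and the outcome is not given here. In the deposited data 68.0% of tested genes had a limma adjusted p under 0.05, so that run cannot vouch for these calls.

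The members and gene lists were chosen with earlier results of these data known. A gene of the complement list is not reported here and was left out of its counts. Named were all 9 members, every called gene of the complement list and at most 12 abundant others, up to 3 abundant genes per marker list, and the 5 genes nearest to the C1q profile. Other genes, such as those given as not tested or at 0, were named by position or after their values were seen. The counts of called genes and the fold changes of 46 named genes were also computed with other pseudocounts, filters, scalings, models and thresholds, a replicate block, and leaving out each library. Ratios were repeated on reads, which differ from those in FPKM by a constant set by gene length, and motif counts on the coding strand, while the order of levels, the nearest profiles and the neighbouring genes were computed in 1 way only.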

Additional observations from a re-analysis of the deposited data

How the results depend on the processing

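Across the alternatives no member changed direction. Of 160 comparisons of a member with another setting, 152 kept the side of the threshold and 8 fell short of it, 5 of these under scaling by the Y-linked genes and 3 (C1qc, C3ar1 and Cfb) under limma treat with the fold threshold as its null. With the replicate number as a block, 6 members were called higher and 3 lower, as without it, and over all genes 625 and 1515, in place of 628 and 1514. Same-numbered libraries did not deviate together from their group means (correlations -0.10, -0.086 and -0.024 for replicates 1, 2 and 3). With 3 libraries per group this cannot show whether they share a culture or batch, which the labels do not say. With a filter at 5 FPKM the members C4b and Cfb were not tested, nor were C1rb and Serping1 of the complement list. This left 1 member and 7 genes of the complement list called lower. Leaving out each library in turn changed no call of a member.

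Scaling by the Y-linked genes left 1 member and 1 gene of the complement list called higher, and over all genes 85 higher and 5181 lower. It left 1 macrophage marker, 3 neutrophil and precursor markers, 1 dendritic cell marker and 0 lymphocyte markers called higher. Among the named genes it turned the direction of Itgb2 (-0.24), C1qbp (-0.20), Cr1l (-0.40), Cd68 (-0.79), Cd14 (-0.30), S100a9 (-0.24) and S100a8 (-0.14), all above the median of all genes, -0.83, under that scaling. Among the other listed genes it turned Csf1r, Adgre1, Fcgr1, Ly6g, Nkg7, Cd8a and, of the scaling genes themselves, Eif2s3y and Uty. Quantile normalisation moved the median of all genes to 0.10. Over all genes, a pseudocount of 0.1 gave 973 genes higher and limma voom 1227. The adjusted p alone gave 4424 higher and 4721 lower, and limma treat 240 and 982. Genes called higher made up 29.3% of the calls, but 39.7% under voom, 39.3% under quantile normalisation and 1.61% under Y-linked scaling. The adjusted p alone gave 14 genes of the complement list, 8 macrophage markers and 5 lymphocyte markers higher. Limma treat gave 1 lymphocyte marker and 1 dendritic cell marker. The number of dendritic cell markers called higher ranged from 1 to 3 when 1 library was left out, at 1 without cisplatin replicate 1 or without PBS replicate 2. In reads in place of FPKM, the ratio of C1qc to C1qa was 1.49 with PBS and 1.39 with cisplatin, by the greater length of C1qc. On the coding strand alone, the ETS core was in 1 member promoter and the MAF half-site in 2. The cause of the other shifts was not tested.

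Among the members depth limits C4b and Cfb most, with between 4 and 17 reads per cisplatin library.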

Other observations

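Complement genes below the filter also held values. C9, the pore-forming end of the cascade, was at 0.143 ± 0.12 FPKM with PBS and 0.531 ± 0.12 FPKM with cisplatin (SD, n = 3 each), with 0 to 9 reads per PBS library and 18 to 29 per cisplatin library. Cr2 was at 0.314 ± 0.072 and 1.04 ± 0.087 FPKM, with 34 to 48 and 127 to 151 reads. The membrane regulators Cd46 (0.387 ± 0.078 and 0.423 ± 0.092 FPKM) and Cd59a (0.945 ± 0.36 and 0.639 ± 0.19 FPKM) had overlapping groups. These genes were not tested, and they were named after their values were seen.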
